A study of Mus musculus with 44 samples.

Results

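Integrin subunit transcripts were measured in fibroblasts sorted from the mammary glands and tumours of transplanted mice. The 10 genes described here, Itga1, Itga4, Itga5, Itga7, Itga8, Itga11, Itgav, Itgb1, Itgb3 and Itgb5, were taken by symbol from a table of 55486 genes, and all 10 passed the filter on low counts. The hosts were En1-Cre;mTmG females, in which cells of the Engrailed-1 lineage carry GFP and other cells carry tdTomato. The hosts received fragments of mammary tissue from WapCre;Brca1F/F;Trp53F/F donors (WB1P), from such donors that also carried Col1a1invCAG-Myc-IRES-Luc (WB1P-Myc), or from WapCre-negative Cdh1F/F;PtenF/F donors (control). Wap-Cre drives recombination in donor mammary epithelium, and the fat pads were not cleared, so the hosts kept their own epithelium. Glands were taken at end-stage tumour, or age-matched for controls, by the series record. The labels of WB1P-Myc mice 23 and 69 carry an 8x8 mark, and the study uses 8 × 8 mm as the size of advanced rather than end-stage tumours, so the stage of these 2 is uncertain. Fibroblasts were the cells negative for EpCAM, CD49f, CD31 and CD45, split by GFP and by CD26, the protein made from Dpp4. CD49f is the integrin subunit made from Itga6, so the level of that gene was set in part by the sort. Cells from controls are called normal fibroblasts (NFs) and cells from tumours cancer-associated fibroblasts (CAFs).

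The 44 libraries, of 5790599 to 15240328 counts each, came from 13 mice. Counts were summed per mouse and CD26 class, which gave 3 mice in each NF group, 5 in WB1P CD26-negative CAFs, 4 in WB1P CD26-positive CAFs and 5 in each WB1P-Myc group. Per-mouse values below follow one order of mice: 82-83, 49-52 and 44-46 for controls, each label with a pair of numbers counted as 1 mouse, then 10, 93, 12, 14 and 35 for WB1P, of which mouse 10 had no CD26-positive library, then 21, 67, 95, 23 and 69 for WB1P-Myc. The labels do not say whether a pair of numbers means tissue pooled from more than 1 mouse. The study counts 3 control mice. Levels are given as CPM, counts scaled to the depth of each sum and corrected by its TMM normalization factor. Log2 fold changes come from edgeR's quasi-likelihood test, called where the adjusted p over all 16601 genes tested was under 0.05. Both CAF models were compared with the same control mice, so their comparisons with NFs are not independent of each other.

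Dpp4 separated the sorted classes, at 1.74 to 6.90 CPM in CD26-negative NFs and 265 to 805 CPM in CD26-positive NFs. In CAFs it was 0.620 to 8.90 and 2.21 to 15.3 CPM in the CD26-negative classes of WB1P and WB1P-Myc, against 234 to 537 and 293 to 612 CPM in the CD26-positive ones. En1 itself was low in all groups, from 5.73 to 8.25 CPM in CD26-negative NFs to 21.6 to 67.2 CPM in WB1P CD26-positive CAFs, and Itga6 was 6.65 to 17.4 CPM in CD26-negative NFs, 18.6 to 50.4 CPM in WB1P and 13.5 to 68.1 CPM in WB1P-Myc CD26-negative CAFs. All 8 fibroblast markers listed were detected in every group, and Col1a1 was the most abundant of them, with a median of 13742 CPM in CD26-negative NFs and 24182 CPM in WB1P CD26-negative CAFs. Other markers of the list went down there: Pdgfra, Dcn, Lum and Dpt had medians of 1445, 3900.1, 2292 and 681 CPM in CD26-negative NFs and 474, 1044, 632 and 177 CPM in WB1P CD26-negative CAFs. Of the 8, 2 were called higher and 4 lower in that comparison (17.6% and 17.8% of all genes).

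Integrins are receptors for extracellular matrix, each built of an alpha and a beta subunit, and the pair decides the ligand. The beta 1 subunit pairs with many alpha subunits to bind collagens, laminins or fibronectin, while beta 3 and beta 5 pair with alpha V to bind proteins that carry an RGD sequence. In fibroblasts these receptors link matrix to the actin cytoskeleton through talin, vinculin, kindlin and related adaptors, and alpha V integrins can release active TGF-beta from its latent complex. Pericytes and smooth muscle cells of vessel walls also carry alpha 1, alpha 7 and alpha 8 subunits.

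Itga1 encodes the alpha 1 subunit of a receptor for collagens, including collagen IV of basement membranes (ENSMUSG00000042284, chr13:114953096-115101964, GRCm38). Its level per mouse was 20.1, 21.3 and 30.3 CPM in CD26-negative NFs and 17.4, 10.5 and 15.0 CPM in CD26-positive NFs. In WB1P it was 637, 257, 653, 318 and 477 CPM in CD26-negative CAFs and 13.2, 23.9, 19.0 and 24.3 CPM in CD26-positive CAFs. In WB1P-Myc it was 744, 384, 397, 748 and 172 CPM in CD26-negative CAFs and 22.6, 21.1, 28.0, 27.7 and 26.6 CPM in CD26-positive CAFs. Every CD26-negative CAF sample of both models lay above every other sample, and mouse 69 was the lowest of them. The gene rose in CD26-negative CAFs of WB1P (log2 fold change 4.29 ± 0.44 (SE), adjusted p = 3.07e-07, 5 of 5 mice above all NFs of that class). In WB1P-Myc the log2 fold change was 4.35 ± 0.44 (SE), adjusted p = 4.20e-07, with 5 of 5 mice above all NFs of that class. No such difference was called in the CD26-positive class, where the log2 fold change was 0.49 in WB1P (adjusted p = 0.340) and 0.82 in WB1P-Myc (adjusted p = 0.0907). The WB1P-Myc value was called in a fit on only the groups compared (0.81), and 5 of 5 mice there lay above all CD26-positive NFs. Over all alternatives that value ran from 0.65 to 0.98.

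CD26-positive CAFs had less Itga1 RNA than CD26-negative CAFs of the same model, by a log2 fold change of -4.55 ± 0.40 (SE), adjusted p = 9.01e-08 in WB1P. The value in WB1P-Myc was -4.28 ± 0.35 (SE), adjusted p = 3.90e-08. Among NFs the same contrast gave -0.74 (adjusted p = 0.453). The CD26 difference was itself larger in CAFs than in NFs when tested directly. That test gave -3.81 ± 0.55 (SE), adjusted p = 7.80e-04 for WB1P, and -3.54 ± 0.53 (SE), adjusted p = 8.32e-04 for WB1P-Myc. In sorted bulk samples, fewer cells of a type and less RNA per cell cannot be told apart.

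Markers of pericytes moved with Itga1. Of the 9 pericyte markers listed (Rgs5, Cspg4, Notch3, Mcam, Abcc9, Kcnj8, Higd1b, Cox4i2 and Ndufa4l2), 9 of 9 were called higher in CD26-negative CAFs of WB1P and 9 of 9 in those of WB1P-Myc (17.6% and 19.1% of all genes). Their summed level was 218, 388 and 228 CPM in CD26-negative NFs and 172, 191 and 182 CPM in CD26-positive NFs. It was 5565, 2104, 2539.97, 1915 and 2739 CPM in WB1P CD26-negative CAFs and 9423, 3166, 4365, 4395 and 2447 CPM in WB1P-Myc CD26-negative CAFs. The highest sums belonged to WB1P mouse 10 and WB1P-Myc mouse 21. Itga1 was highest in mice 12 and 23, with mice 10 and 21 close behind (637 against 653 CPM and 744 against 748 CPM). No CD26-negative CAF sample came within the range of the other samples. The sum in CD26-positive CAFs was 239 to 454 CPM in WB1P and 209 to 361 CPM in WB1P-Myc. Rgs5 was the most abundant of the markers in CD26-negative CAFs, at a median of 737 CPM in WB1P and 1402 CPM in WB1P-Myc, against Notch3 at 109.9 CPM in CD26-negative NFs, and each of the 9 had counts in some mouse of every group, although the median of Higd1b was 0 CPM in all CD26-positive groups. The 7 smooth muscle markers (Myh11, Cnn1, Des, Lmod1, Actg2, Synpo2 and Smtn) summed to 162 to 183 CPM in CD26-negative NFs, 369.9 to 705 CPM in WB1P and 323 to 761 CPM in WB1P-Myc CD26-negative CAFs, with 6 of 7 called higher in each model. Smtn was the most abundant in WB1P (median 189 CPM) and Myh11 in WB1P-Myc (median 123 CPM), and each had counts in every sample of these groups. Itgb1 and Itgb5 also rose in these samples, and over the 25 sums they went with Itga1 at r = 0.764 and 0.848. The part of these cell types in the level of any member was not tested.

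Over the 25 sums, the genes whose log2 CPM was most like that of Itga1 were Mcam (r = 0.979), Tmem273 (r = 0.976) and Gm10687 (r = 0.970), of which Mcam is itself one of the pericyte markers. For Itga7 they were Gm13889 (r = 0.975), Kcnk3 (r = 0.970) and Des (r = 0.950), and for Itga4 Aim2 (r = 0.938), Parvb (r = 0.937) and Fhl5 (r = 0.937). These sums share mice and sorts and fall into groups far apart, so the coefficients describe the groups and carry no p.

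**Figure D1:**
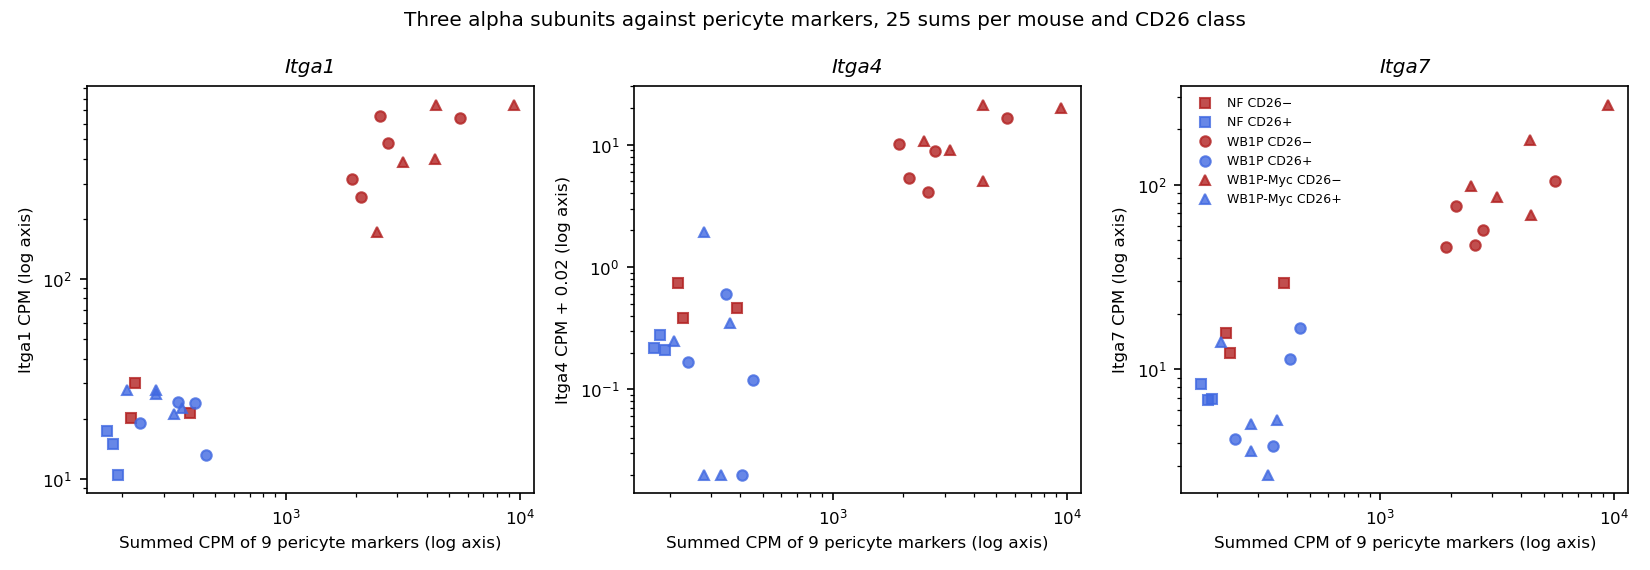
CPM of Itga1, Itga4 and Itga7 in each of the 25 sums against the summed CPM of 9 pericyte markers, both on log axes, with 0.02 added to Itga4 so that mice without a count can be drawn. CD26-negative CAF samples (red circles and triangles) lie at 1915 CPM or more on the marker axis, and all other samples at 454 CPM or less.

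Itga11 encodes alpha 11, a fibroblast receptor for fibrillar collagens (ENSMUSG00000032243, chr9:62677826-62783982). It was 65.0, 149 and 72.0 CPM in CD26-negative NFs and 246, 545 and 389 CPM in CD26-positive NFs. WB1P values were 226, 220.2, 152, 236 and 277 CPM in CD26-negative CAFs and 219, 152, 264 and 241 CPM in CD26-positive CAFs. WB1P-Myc values were 72.1, 131, 102, 158 and 150.1 CPM in CD26-negative CAFs and 276, 122, 174, 179.7 and 271 CPM in CD26-positive CAFs. The NF classes did not overlap, the CD26-positive one being higher, whereas the WB1P classes lay in the same range. The difference between NF classes was a log2 fold change of 2.04 ± 0.37 (SE), adjusted p = 0.00156, with 3 of 3 mice higher. It was no longer called without control mouse 44-46 (1.88), or in a fit on only the groups compared (2.04). In WB1P CAFs the same contrast gave -0.02 (adjusted p = 0.968), and the difference of the differences was -2.06 ± 0.47 (SE), adjusted p = 0.0220. That call ended without control mouse 82-83 (-2.10) or 44-46 (-1.91), or WB1P mouse 93 (-2.06) or 35 (-2.03), and in GFP-negative sorts alone (-1.72). In WB1P-Myc CAFs the CD26 contrast was 0.74 (adjusted p = 0.0631), and with mouse as a block 0.72, called there but not in the main fit. It was also called without control mouse 49-52 (0.74), and in GFP-negative sorts alone (1.02), over a range of 0.37 to 1.02 in all alternatives.

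Against NFs, Itga11 rose in CD26-negative CAFs of WB1P (log2 fold change 1.22 ± 0.33 (SE), adjusted p = 0.00669, 5 of 5 mice above all NFs of that class). That call was lost without control mouse 44-46 (1.06). In WB1P-Myc the value was 0.36 (adjusted p = 0.390). Among CD26-positive CAFs the gene was lower than in NFs, by -0.94 ± 0.31 (SE), adjusted p = 0.0227 in WB1P-Myc, a call lost without control mouse 49-52 (-0.62) or 44-46 (-0.94), or WB1P-Myc mouse 67 (-0.83) or 95 (-0.88), and in GFP-negative sorts alone (-0.71). In WB1P the value was -0.84 ± 0.33 (SE), adjusted p = 0.0513, not called, although it passed without control mouse 82-83 (-1.10), or WB1P-Myc mouse 21 (-0.84) or 67 (-0.87), and with DESeq2 size factors (-0.86), by DESeq2's test (-0.86) and in GFP-positive sorts alone (-0.91). Over all alternatives it ran from -1.10 to -0.53, nearest to 0 without control mouse 49-52. 3 of 4 WB1P mice and 3 of 5 WB1P-Myc mice were below the lowest CD26-positive NF.

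Itga7 encodes alpha 7, a laminin receptor best known from muscle (ENSMUSG00000025348, chr10:128933818-128958282). Its level was 15.8, 29.3 and 12.3 CPM in CD26-negative NFs and 8.36, 6.95 and 6.86 CPM in CD26-positive NFs. WB1P CAFs held 105, 76.6, 47.4, 45.8 and 56.8 CPM in the CD26-negative class and 16.8, 11.4, 4.20 and 3.85 CPM in the CD26-positive class. WB1P-Myc CAFs held 272, 85.3, 175, 68.4 and 98.1 CPM and 5.33, 2.69, 14.1, 3.64 and 5.09 CPM. As for Itga1, every CD26-negative CAF sample was above all other samples, and WB1P-Myc mouse 21 was the highest. Itga7 rose in CD26-negative CAFs of WB1P-Myc (log2 fold change 2.87 ± 0.58 (SE), adjusted p = 7.42e-04, 5 of 5 mice above all NFs of that class). The rise in WB1P was 1.79 ± 0.55 (SE), adjusted p = 0.0149, with 5 of 5 mice above all NFs of that class, and that call was lost without control mouse 82-83 (1.67) or 44-46 (1.56). CD26-positive CAFs did not pass the test against NFs, at 0.27 in WB1P (adjusted p = 0.741, turning to -0.33 without WB1P mouse 93) and -0.28 in WB1P-Myc (adjusted p = 0.713), with alternatives from -0.33 to 0.52 and from -0.79 to -0.01.

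The CD26-positive class had less Itga7 RNA than the CD26-negative class in WB1P CAFs (log2 fold change -2.90 ± 0.53 (SE), adjusted p = 3.44e-04). In WB1P-Myc CAFs the value was -4.52 ± 0.52 (SE), adjusted p = 1.75e-06. NFs gave -1.37 for this contrast (adjusted p = 0.268). The CD26 difference in WB1P-Myc CAFs exceeded that in NFs by -3.15 ± 0.76 (SE), adjusted p = 0.0447, and this call ended without control mouse 82-83 (-2.91), 49-52 (-3.62) or 44-46 (-2.94), or WB1P mouse 12 (-3.13), 14 (-3.14) or 35 (-3.13), or WB1P-Myc mouse 21 (-2.71), 67 (-3.08), 23 (-3.16) or 69 (-3.19), and in a fit on only the groups compared (-3.14), without the 2 mice marked 8x8 (-3.23) and in GFP-positive sorts alone (-2.22). For WB1P the same test gave -1.52 (adjusted p = 0.402).

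Itga4 encodes alpha 4, which with beta 1 binds VCAM-1 and fibronectin and is best known from leukocytes (ENSMUSG00000027009, chr2:79255426-79333123). It was scarce, at 0.725, 0.438 and 0.364 CPM in CD26-negative NFs and 0.198, 0.189 and 0.258 CPM in CD26-positive NFs. CD26-negative CAFs had 16.5, 5.36, 4.12, 10.1 and 8.80 CPM in WB1P and 19.8, 8.98, 21.3, 5.02 and 10.6 CPM in WB1P-Myc. CD26-positive CAFs had 0.0996, 0, 0.146 and 0.583 CPM in WB1P and 0.327, 0, 0.227, 0 and 1.91 CPM in WB1P-Myc. All 10 CD26-negative CAF samples were above all other samples, and 3 CD26-positive CAF samples had no count. The rise in CD26-negative CAFs was 4.12 ± 0.91 (SE), adjusted p = 0.00128 in WB1P, with 5 of 5 mice above all NFs of that class. In WB1P-Myc it was 4.67 ± 0.93 (SE), adjusted p = 5.93e-04, with 5 of 5. CD26-positive CAFs were lower than CD26-negative ones by -5.12 ± 0.90 (SE), adjusted p = 2.12e-04 in WB1P, and by -4.63 ± 0.75 (SE), adjusted p = 1.07e-04 in WB1P-Myc. Both were called in all alternatives, with values from -6.30 to -4.32 and from -6.55 to -3.34.

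At the depth of the CD26-positive groups the comparison of Itga4 with NFs rested on few counts. It gave 0.21 in WB1P (adjusted p = 0.898), turning to -0.97 without WB1P mouse 35 and -1.003 in GFP-positive sorts alone. The sign in WB1P is not that of the mean levels, 0.207 CPM in CAFs and 0.215 CPM in NFs, and 3 of 4 CAF mice were below all NFs of that class. WB1P-Myc gave 1.25 (adjusted p = 0.318), turning to -0.60 without WB1P-Myc mouse 69, -0.12 without the 2 mice marked 8x8 and -0.35 in GFP-positive sorts alone. The CD26 difference against that in NFs was not called for WB1P in the main fit (-3.91 ± 1.38 (SE), adjusted p = 0.171), but it was by DESeq2's test (-4.02), in a fit on only the groups compared (-3.92), without the 2 mice marked 8x8 (-3.91) and in GFP-positive sorts alone (-5.34), and all alternatives ran from -5.34 to -2.61. For WB1P-Myc it was -3.42 ± 1.30 (SE), adjusted p = 0.303, called without WB1P-Myc mouse 69 (-5.34), and without the 2 mice marked 8x8 (-5.14), with alternatives from -5.34 to -1.63. Among NFs the CD26 contrast was -1.21 (adjusted p = 0.740), with alternatives from -1.71 to -0.61. Cerkl, on the opposite strand, shares 1124 exon bases with Itga4 and had 212 counts against 2251 for Itga4, and the sources do not say whether counting used strand.

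Of the immune markers listed, 7 (Ptprc, Cd68, Csf1r, Cd3e, Lyz2, Adgre1 and Tyrobp) summed to 18.4 to 21.7 CPM in CD26-negative NFs, 13.7 to 65.7 CPM in WB1P CD26-negative CAFs and 22.1 to 81.3 CPM in WB1P-Myc CD26-negative CAFs. In the CD26-positive classes, where Itga4 was near 0, they summed to 16.9 to 29.6, 61.7 to 145 and 20.2 to 249 CPM. The most abundant of them was Csf1r in CD26-negative CAFs (medians 6.75 and 12.6 CPM) and Cd3e in CD26-positive CAFs (medians 51.0 and 39.1 CPM). In CD26-positive CAFs Cd3e alone reached 129.5 CPM in WB1P and 221 CPM in WB1P-Myc, so it made up most of the highest sums. Each of these 7 had counts in every CD26-negative sample, while Adgre1 and Tyrobp had none in some CD26-positive samples. Of the 7, 3 were called higher in CD26-negative CAFs of each model (17.6% and 19.1% of all genes). Their part in the level of Itga4 was not tested.

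Itga5 encodes alpha 5, the subunit of the main fibronectin receptor (ENSMUSG00000000555, chr15:103344286-103366763). Its level was 657, 413 and 325 CPM in CD26-negative NFs and 1005, 356 and 401 CPM in CD26-positive NFs. WB1P CAFs had 758, 2044, 1196, 1003 and 1283 CPM in the CD26-negative class and 2609, 952, 811 and 846 CPM in the CD26-positive class. WB1P-Myc CAFs had 564, 539, 884, 660.03 and 674 CPM and 1073, 443, 1292, 547 and 582 CPM. Mouse 93 was the highest WB1P mouse in both classes, and control mouse 82-83 the highest NF in both. Itga5 rose in WB1P CD26-negative CAFs (log2 fold change 1.44 ± 0.46 (SE), adjusted p = 0.0177, 5 of 5 mice above all NFs of that class). That call was lost without control mouse 49-52 (1.38) or 44-46 (1.24). In the CD26-positive class of WB1P the value was 1.15 ± 0.46 (SE), adjusted p = 0.0591, not called, with 1 of 4 mice above all NFs of that class, and it was called without control mouse 82-83 (1.77), and by DESeq2's test (1.14) and in GFP-positive sorts alone (1.20). Without WB1P mouse 93 it was 0.56, the lowest of the alternatives. WB1P-Myc CAFs did not pass the test, at 0.51 in the CD26-negative class (adjusted p = 0.369) and 0.42 in the CD26-positive class (adjusted p = 0.470), with alternatives from 0.32 to 0.84 and from 0.19 to 1.06. The CD26 contrast was 0.34 in NFs, 0.05 in WB1P and 0.25 in WB1P-Myc, with adjusted p = 0.900, 0.940 and 0.718. These ran over all alternatives from 0.03 to 0.51, from -0.29 to 0.20 and from 0.05 to 0.50. The sign in WB1P turned with mouse as a block (-0.22), without WB1P mouse 93 (-0.29) or 10 (-0.08) and in GFP-positive sorts alone (-0.04), and only 1 of 4 WB1P mice with both classes had more in the CD26-positive one.

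Itga8 encodes alpha 8, an RGD receptor whose best known ligand is nephronectin (ENSMUSG00000026768, chr2:12106632-12301922), and it was the one member that was lower in CAFs of both classes and both models. NFs had 126, 91.4 and 128 CPM in the CD26-negative class and 63.0, 17.6 and 40.8 CPM in the CD26-positive class. WB1P CAFs had 18.4, 8.22, 18.7, 16.4 and 14.7 CPM and 0.648, 1.09, 3.10 and 3.11 CPM in these classes. WB1P-Myc CAFs had 13.3, 19.8, 12.8, 32.7 and 7.95 CPM and 0.0468, 0.566, 1.89, 1.79 and 1.86 CPM. No CAF sample reached the lowest NF of its class, and within each model the CD26-positive samples were all below the CD26-negative ones. In CD26-negative CAFs Itga8 fell by a log2 fold change of -2.91 ± 0.53 (SE), adjusted p = 2.22e-04 in WB1P (5 of 5 mice below all NFs of that class). In WB1P-Myc it was -2.73 ± 0.53 (SE), adjusted p = 4.74e-04 (5 of 5). The CD26-positive class gave -4.25 ± 0.63 (SE), adjusted p = 5.22e-05 in WB1P (4 of 4). In WB1P-Myc it gave -5.03 ± 0.60 (SE), adjusted p = 6.40e-06 (5 of 5).

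Between the CD26 classes Itga8 was lower in the CD26-positive one, by -2.84 ± 0.57 (SE), adjusted p = 8.56e-04 in WB1P CAFs. The value in WB1P-Myc CAFs was -3.81 ± 0.56 (SE), adjusted p = 3.09e-05. In NFs it was -1.51 ± 0.61 (SE), adjusted p = 0.218, not called, and with mouse as a block -1.66, called there. In NFs 3 of 3 CD26-positive samples were below all CD26-negative samples. The genes most like Itga8 over the 25 sums were Map2 (r = 0.955), Lamc3 (r = 0.934) and Angpt2 (r = 0.925). Lamc3, a laminin chain, ranked as the gene of its list with the largest fall in CD26-negative CAFs, at -4.89 in WB1P and -5.06 in WB1P-Myc.

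Itgav encodes alpha V, which pairs with beta 1, beta 3 and beta 5 (ENSMUSG00000027087, chr2:83724397-83806916). It had 649, 167 and 488 CPM in CD26-negative NFs and 581, 215 and 365 CPM in CD26-positive NFs. WB1P CAFs had 379, 435, 549.8, 416 and 447 CPM and 452, 212, 251 and 301 CPM in these classes. WB1P-Myc CAFs had 272, 379.6, 262, 451 and 207 CPM and 282, 228, 237, 331 and 209 CPM. The 3 control mice spanned the range of the CAFs, mouse 82-83 being above all CAFs of its class and mouse 49-52 near or below the lowest. No comparison called Itgav. Against NFs the log2 fold change was 0.04 and -0.47 in CD26-negative CAFs of WB1P and WB1P-Myc (adjusted p = 0.946 and 0.292). CD26-positive CAFs gave -0.35 and -0.59 (adjusted p = 0.478 and 0.183). Both WB1P-Myc values passed without control mouse 49-52 (CD26-negative -0.84, CD26-positive -0.86). The WB1P values changed sign, to -0.33 without control mouse 49-52 and -0.05 without WB1P mouse 12 in the CD26-negative class, and to 0.06 without control mouse 82-83 in the CD26-positive class. Between the CD26 classes of WB1P CAFs the value was -0.55 ± 0.32 (SE), adjusted p = 0.221, and with mouse as a block -0.65, called there.

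Itgb1 encodes beta 1, the partner of all alpha subunits above (ENSMUSG00000025809, chr8:128685654-128733200). Its level was 798, 537 and 646 CPM in CD26-negative NFs and 868, 523 and 629 CPM in CD26-positive NFs. WB1P CAFs had 1359, 1698, 1592, 1634 and 1566 CPM and 1237, 1029, 930.4 and 1016 CPM in these classes. WB1P-Myc CAFs had 1312, 1275, 1161, 1412 and 977 CPM and 1081, 872, 945, 1005 and 849 CPM. CD26-negative CAFs were above all NFs of their class, with the highest values in WB1P, and CD26-positive CAFs overlapped NFs only through control mouse 82-83 and WB1P-Myc mouse 69. The gene rose in CD26-negative CAFs by 1.25 ± 0.18 (SE), adjusted p = 1.29e-05 in WB1P (5 of 5 mice above all NFs of that class). The rise in WB1P-Myc was 0.89 ± 0.17 (SE), adjusted p = 4.51e-04 (5 of 5). Pericyte markers rose in the same samples, and their part in the level of Itgb1 was not tested. CD26-positive CAFs had a rise of 0.65 ± 0.18 (SE), adjusted p = 0.00838 in WB1P (4 of 4), and this call was lost in a fit on only the groups compared (0.66). In WB1P-Myc the value was 0.50 ± 0.17 (SE), adjusted p = 0.0277 (4 of 5), a call lost without control mouse 49-52 (0.36) or 44-46 (0.47), or WB1P-Myc mouse 21 (0.45), and without the filter on low counts (0.51), in a fit on only the groups compared (0.49), without the 2 mice marked 8x8 (0.52) and in GFP-positive sorts alone (0.45).

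CD26-positive CAFs of WB1P had less Itgb1 RNA than CD26-negative ones (log2 fold change -0.58 ± 0.15 (SE), adjusted p = 0.00838, 4 of 4 mice below all CD26-negative samples), a call lost without WB1P mouse 14 (-0.51). In WB1P-Myc CAFs the contrast was -0.37 ± 0.14 (SE), adjusted p = 0.0772, not called, and with mouse as a block -0.36, called there. It was also called without control mouse 82-83 (-0.37) or 49-52 (-0.37), and by DESeq2's test (-0.39), in a range of -0.44 to -0.28 over all alternatives. The values over the 25 sums were most like those of Inhba (r = 0.956), Nus1 (r = 0.941) and Tes (r = 0.938), the first of which encodes a subunit of activin A.

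Itgb5 encodes beta 5, which joins alpha V in a vitronectin receptor (ENSMUSG00000022817, chr16:33829665-33949338). It had 342, 253 and 335 CPM in CD26-negative NFs and 301, 285 and 288 CPM in CD26-positive NFs. WB1P CAFs had 743, 736, 869.7, 1023 and 732 CPM and 374, 419.8, 451 and 426 CPM in these classes. WB1P-Myc CAFs had 470.5, 725, 529, 911 and 435 CPM and 398, 434, 439, 372 and 379 CPM. Every CAF sample was above every NF of its class. The rise in CD26-negative CAFs was 1.40 ± 0.20 (SE), adjusted p = 1.45e-05 in WB1P (5 of 5 mice). In WB1P-Myc it was 0.99 ± 0.20 (SE), adjusted p = 5.75e-04 (5 of 5). The rise of the pericyte markers was in the same samples, and its part in the level of Itgb5 was not tested. CD26-positive CAFs of WB1P gave 0.52 ± 0.20 (SE), adjusted p = 0.0474 (4 of 4), a call lost without control mouse 82-83 (0.54), 49-52 (0.51) or 44-46 (0.52), or WB1P mouse 10 (0.52), 12 (0.51), 14 (0.48) or 35 (0.49), or WB1P-Myc mouse 67 (0.50) or 95 (0.53), and with DESeq2 size factors (0.51), without the filter on low counts (0.52), in a fit on only the groups compared (0.54) and in GFP-negative sorts alone (0.49). WB1P-Myc gave 0.47 ± 0.19 (SE), adjusted p = 0.0581 (5 of 5), called without WB1P-Myc mouse 23 (0.49), and in a fit on only the groups compared (0.47), without the 2 mice marked 8x8 (0.54) and in GFP-positive sorts alone (0.47), in a range of 0.41 to 0.54 over all alternatives.

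The CD26-positive class also held less Itgb5 RNA than the CD26-negative class, with a log2 fold change of -0.97 ± 0.18 (SE), adjusted p = 3.10e-04 in WB1P CAFs (4 of 4 mice below all CD26-negative samples). In WB1P-Myc CAFs it was -0.60 ± 0.16 (SE), adjusted p = 0.0106 (4 of 5), a call lost without WB1P-Myc mouse 23 (-0.39), and in a fit on only the groups compared (-0.61) and without the 2 mice marked 8x8 (-0.44). In NFs, where the classes overlapped, no difference was called.

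Itgb3 encodes beta 3, the other main partner of alpha V (ENSMUSG00000020689, chr11:104608000-104670476), and of the 3 beta subunits among the 10 members it alone was called higher in the CD26-positive than in the CD26-negative class, in NFs and in WB1P-Myc CAFs. NFs had 80.2, 84.1 and 75.1 CPM in the CD26-negative class and 166, 199 and 152 CPM in the CD26-positive class. WB1P CAFs had 93.5, 161, 128, 153 and 115 CPM and 271, 146, 185 and 168 CPM. WB1P-Myc CAFs had 50.1, 79.1, 68.4, 85.7 and 48.0 CPM and 219, 146, 146, 164 and 103 CPM. The classes did not overlap in NFs or in WB1P-Myc CAFs. They overlapped in WB1P CAFs, although 4 of 4 WB1P mice with both classes had more in the CD26-positive one. CD26-positive NFs were above CD26-negative NFs by 1.11 ± 0.26 (SE), adjusted p = 0.0162, a call lost without control mouse 82-83 (1.14), 49-52 (1.03) or 44-46 (1.14). In WB1P-Myc CAFs the difference was 1.23 ± 0.21 (SE), adjusted p = 1.42e-04, with 5 of 5 mice above all CD26-negative samples. In WB1P CAFs it was 0.56 ± 0.21 (SE), adjusted p = 0.0550, not called, although it passed without WB1P-Myc mouse 21 (0.56) or 69 (0.56), and without the 2 mice marked 8x8 (0.56), in a range of 0.44 to 0.66 over all alternatives. Mouse as a block did not bring in this call.

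In CD26-negative CAFs the models differed in Itgb3, which was lower in WB1P-Myc than in WB1P by -0.97 ± 0.20 (SE), adjusted p = 0.0358, with 5 of 5 WB1P-Myc mice below all WB1P mice. That call was lost without control mouse 82-83 (-0.98) or 44-46 (-0.98), or WB1P mouse 93 (-0.88), 12 (-0.98), 14 (-0.91) or 35 (-1.01), or WB1P-Myc mouse 21 (-0.89), 67 (-1.04), 95 (-0.98) or 69 (-0.88), and in a fit on only the groups compared (-0.97), without the 2 mice marked 8x8 (-0.98) and in GFP-positive sorts alone (-0.75). Against NFs Itgb3 rose in CD26-negative CAFs of WB1P (0.71 ± 0.24 (SE), adjusted p = 0.0257, 5 of 5 mice above all NFs of that class), a call lost without control mouse 82-83 (0.71), 49-52 (0.76) or 44-46 (0.67), or WB1P mouse 14 (0.64). In WB1P-Myc the value was -0.27 (adjusted p = 0.379). In the CD26-positive class neither model passed the test.

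**Figure D2:**
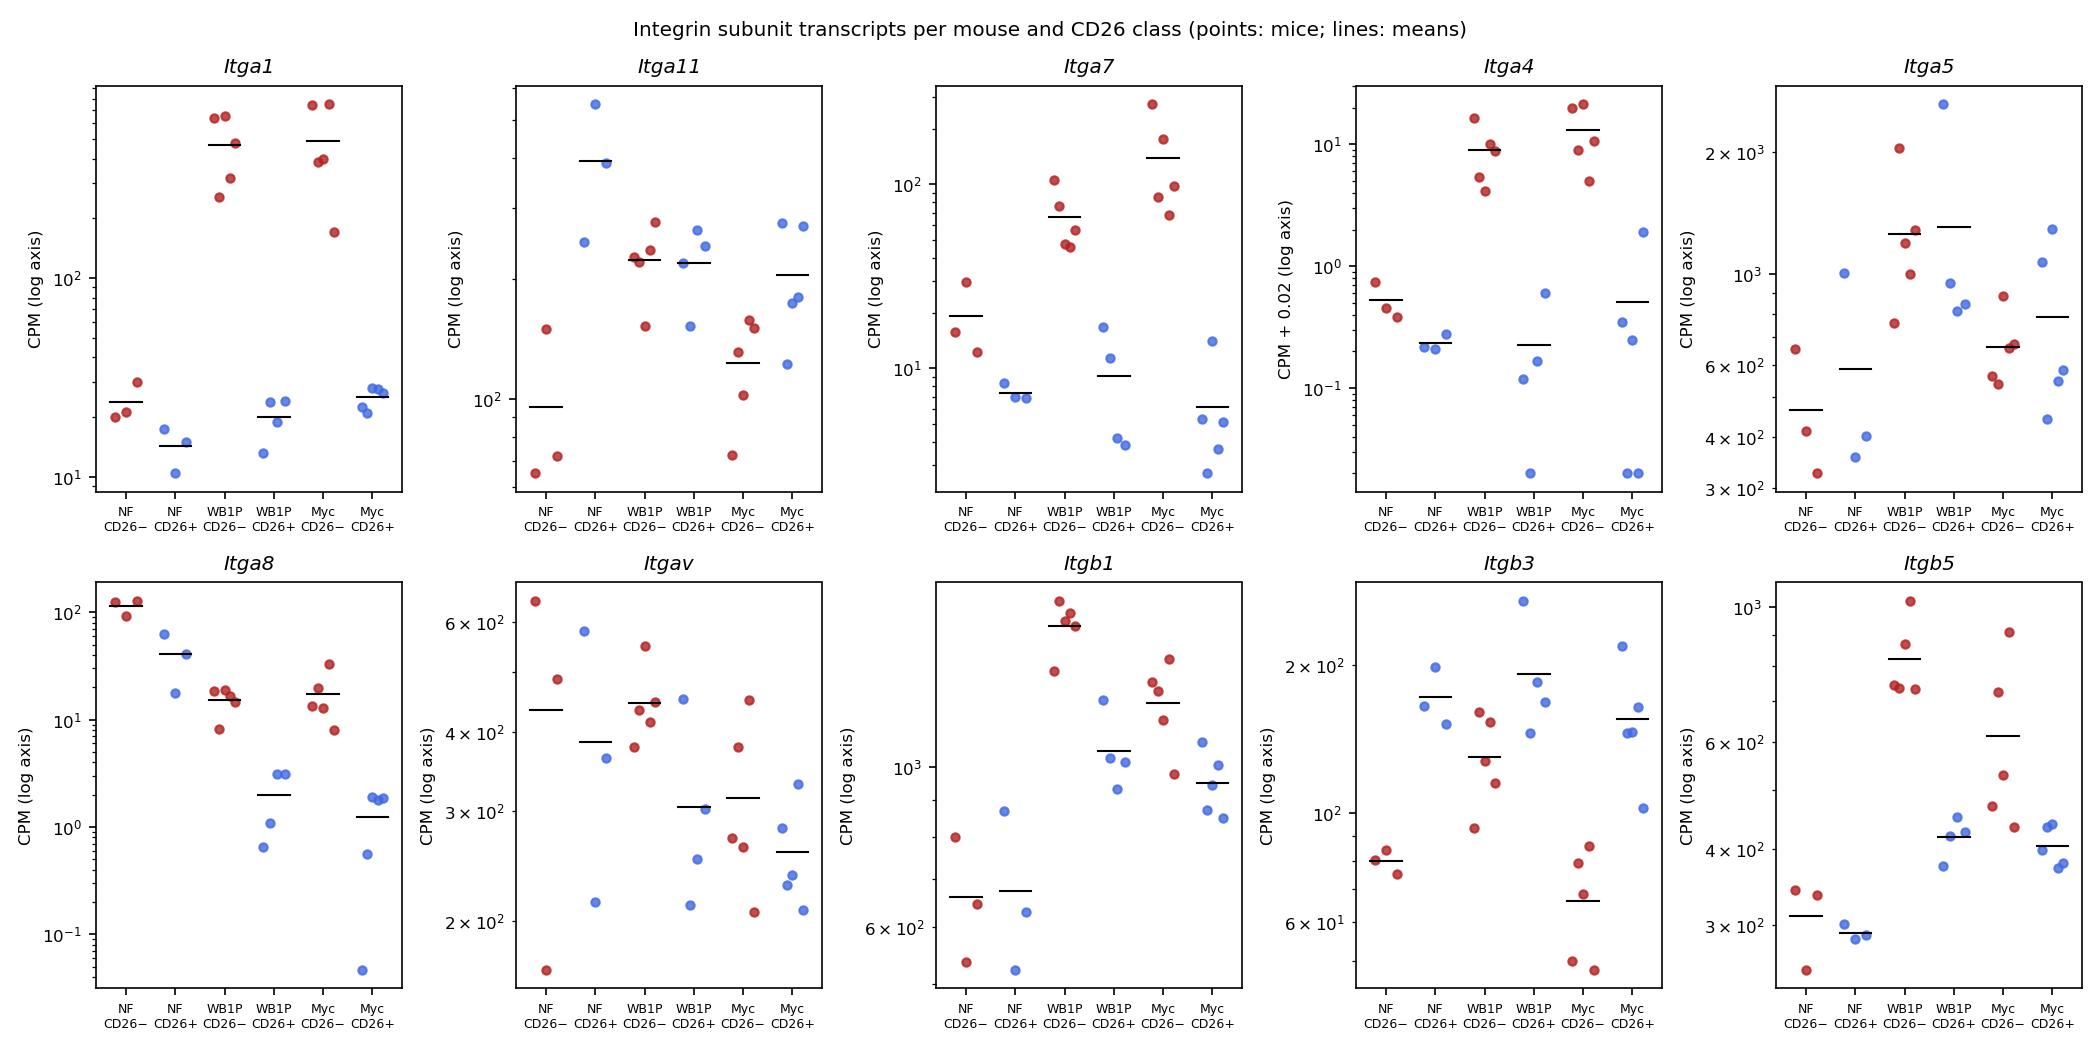
CPM of the 10 integrin subunits on log axes, with 1 point per mouse and a line at the mean of each group, for NFs, WB1P CAFs and WB1P-Myc CAFs in the CD26-negative (red) and CD26-positive (blue) class; 0.02 was added to Itga4. Itga1 lies at 257 to 653 and 172 to 748 CPM in CD26-negative CAFs of WB1P and WB1P-Myc and at 30.3 CPM or less in all other groups.

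Levels of different genes were compared per kilobase of exon, over the union of all annotated exons, so a gene with long alternative exons comes out lower. Itgb1 had the highest median of the 10 in every group on this scale, with a median of 158 CPM per kb in CD26-negative NFs and 390.03 CPM per kb in WB1P CD26-negative CAFs. Mice overlapped, however: the range of Itga5 reached into that of Itgb1 in every group but WB1P-Myc CD26-negative CAFs, where that of Itgb5 did, and in CD26-positive CAFs of WB1P mouse 93 Itga5 (529 CPM per kb) was above Itgb1 (303), as in those of WB1P-Myc mouse 95 (262 against 231). Itga4 had the lowest median in every group, with medians of 0.0314 and 0.629 CPM per kb in those groups. In CD26-negative NFs Itgb5 (94.4) and Itga5 (83.7 CPM per kb) overlapped over mice, as did Itga8 (17.1), Itga11 (14.0) and Itgb3 (13.6). In CD26-negative CAFs of WB1P the order ran from Itgb1 to Itga5 (242) and Itgb5 (209), whose ranges overlapped, and Itga8 was next to last at 2.23 CPM per kb.

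Among the 7 alpha subunits, Itga5 made up the largest mean share in every group, from 47.0% ± 15.3 (SD, n = 3) in CD26-positive NFs to 75.4% ± 8.41 (SD, n = 4) in WB1P CD26-positive CAFs. This did not hold in each mouse of the CD26-positive NFs. In mouse 49-52 Itga11 (106 CPM per kb) was above Itga5 (72.1). The share of Itga1 was 0.794% ± 0.320 (SD, n = 3) in CD26-negative NFs. In CD26-negative CAFs it was 7.26% ± 3.65 in WB1P and 11.1% ± 5.33 in WB1P-Myc (SD, n = 5 each). Without division by length these 3 shares of Itga1 were 2.21% ± 0.805, 19.5% ± 8.27 and 26.5% ± 10.2 (SD), each over 2-fold larger. Itga8 went the other way, with 9.32% ± 2.27 (SD, n = 3) in CD26-negative NFs against 0.601% ± 0.254 and 0.993% ± 0.501 in the CAFs (SD, n = 5 each). Itga7 held 7.37% ± 4.37 in WB1P-Myc CD26-negative CAFs (SD, n = 5) and 1.46% ± 0.890 in CD26-negative NFs (SD, n = 3). Itga11 had its largest share in CD26-positive NFs, 35.3% ± 18.9 (SD, n = 3).

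The summed alpha subunits stood at 0.920 to 1.16 times the level of Itgb1 per kilobase in CD26-negative NFs and at 1.29 to 1.58 times in CD26-positive NFs. In CD26-negative CAFs the ratio was 0.783 to 1.26 in WB1P and 0.655 to 0.948 in WB1P-Myc. In CD26-positive CAFs it was 0.972 to 2.03 and 0.638 to 1.39. CD26-positive NFs lay above all CD26-negative samples of NFs and CAFs, and both CD26-positive CAF groups overlapped them.

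**Figure D3:**
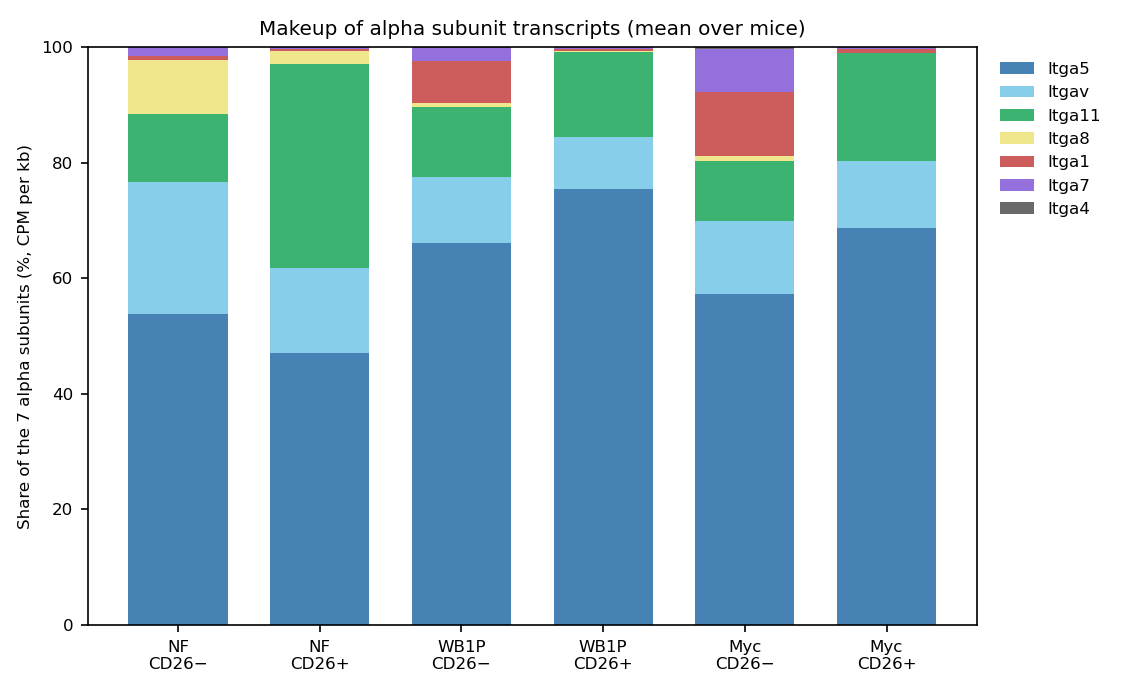
Mean share of each of 7 alpha subunits in their summed level (percent of CPM per kb) in the NF, WB1P and WB1P-Myc groups of each CD26 class, n = 3 to 5 mice. Itga5 is the largest segment in all groups, and Itga1 is 11.1% in WB1P-Myc CD26-negative CAFs.

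Across the 10 subunits, the comparison of WB1P CD26-negative CAFs with NFs held the most calls: 8 of 10 were called higher, against 17.6% of all genes tested, and 1 lower, against 17.8%. The count of members called higher was 4 without control mouse 44-46. In WB1P-Myc 5 were called higher, against 19.1% of all genes, and 1 lower, against 17.5%. The count lower was 2 without control mouse 49-52. The median log2 fold change of the members was 1.33 in WB1P and 0.70 in WB1P-Myc, beside 0.00 and 0.02 over all genes. Among CD26-positive CAFs, WB1P gave 2 higher (17.4% of all genes) and 1 lower (16.1%). The count higher fell to 1 without control mouse 49-52 or 44-46, or WB1P mouse 10, 12, 14 or 35, or WB1P-Myc mouse 67 or 95, and the count lower rose to 2 without control mouse 82-83, or WB1P-Myc mouse 21 or 67. Other settings gave 1 with DESeq2 size factors, 1 without the filter on low counts, 0 in a fit on only the groups compared and 1 in GFP-negative sorts alone higher, and 2 with DESeq2 size factors, 2 by DESeq2's test and 2 in GFP-positive sorts alone lower. WB1P-Myc gave 1 higher (17.4%) and 2 lower (17.3%). There the count higher became 0 without control mouse 49-52 or 44-46, or WB1P-Myc mouse 21, and 2 without WB1P-Myc mouse 23, and the count lower 1 without control mouse 44-46, or WB1P-Myc mouse 67 or 95. Other settings gave 0 without the filter on low counts and 2 in a fit on only the groups compared higher, and 1 in GFP-negative sorts alone lower.

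Between the CD26 classes of NFs, Itga11 and Itgb3 were called higher in the CD26-positive class, 2 of 10 against 2.67% of all genes tested. edgeR called 0 members lower, against 1.49%, with 4 of 10 at an unadjusted p under 0.05 in either direction and 0 called lower by DESeq2. In all 3 control mice Itga1, Itga4, Itga7 and Itga8 were lower in the CD26-positive class, and for these 4 the classes did not overlap. The share of all genes whose classes lay apart in this way was not counted, so the 4 of 10 cannot be set against it. With mouse as a block, which uses the pairing of classes within mice, these 4 members gave -0.75, -1.17, -1.28 and -1.66 (adjusted p = 0.196, 0.507, 0.0529 and 0.0357). So 1 was called lower, Itga8, and the genes called went from 692 to 1916. The count higher became 0 without control mouse 44-46, and 1 without control mouse 82-83 or 49-52, and 1 in a fit on only the groups compared. In WB1P CAFs 6 members were called lower in the CD26-positive class, against 13.0% of all genes. None was called higher by edgeR (0, against 13.0%), 7 had an unadjusted p under 0.05 in either direction, and DESeq2 called 0 higher. The count higher became 1 without WB1P-Myc mouse 21 or 69, and 1 without the 2 mice marked 8x8. In WB1P-Myc CAFs 5 were called lower, against 10.7%, and 1 higher, against 9.29%. With mouse as a block 2 were called higher and the genes called went from 3326 to 5346, and the count higher was 2 without control mouse 49-52, and 2 in GFP-negative sorts alone.

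The CD26 difference was tested against that in NFs. In WB1P, Itga1 and Itga11 were called lower, 2 of 10 against 1.07% of all genes. That count became 1 without control mouse 82-83 or 44-46, or WB1P mouse 93 or 35, and 4 by DESeq2's test and 1 in GFP-negative sorts alone. In WB1P-Myc, Itga1 and Itga7 were called lower, 2 of 10 against 0.885%. That count became 1 without control mouse 82-83, 49-52 or 44-46, or WB1P mouse 12, 14 or 35, or WB1P-Myc mouse 21, 67 or 23, and 1 in a fit on only the groups compared and 1 in GFP-positive sorts alone. edgeR called 0 members higher in both tests, against 0.789% and 0.277% of all genes, with 5 and 5 members at an unadjusted p under 0.05 in either direction, and DESeq2 called 0 higher in both. With mouse as a block the genes called went from 309 to 851 for WB1P and from 193 to 523 for WB1P-Myc.

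WB1P-Myc and WB1P CAFs were also compared directly. In the CD26-negative class 1 member, Itgb3, was called lower in WB1P-Myc, against 0.307% of all genes, and edgeR called 0 higher, against 0.205%, with 6 members at an unadjusted p under 0.05 in either direction and 0 called higher by DESeq2. Over all genes edgeR called 85 there, 2405 had an unadjusted p under 0.05, and DESeq2 called 411. The count of members lower became 0 without control mouse 82-83 or 44-46, or WB1P mouse 93, 12, 14 or 35, or WB1P-Myc mouse 21, 67, 95 or 69, and 2 without WB1P-Myc mouse 23, and 0 in a fit on only the groups compared, 0 without the 2 mice marked 8x8 and 0 in GFP-positive sorts alone. In the CD26-positive class edgeR called 0 members higher and 0 lower, against 0% and 0% of all genes, with 0 at an unadjusted p under 0.05 and 0 called by DESeq2. Over all genes 646 had an unadjusted p under 0.05 there, and DESeq2 called 9. The difference between the CD26 contrasts of the models also gave 0 higher and 0 lower by edgeR (0% and 0% of all genes), with 2 members at an unadjusted p under 0.05 and 0 called by DESeq2.

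The En1 lineage, read by GFP, was compared inside each CD26 class on single libraries, over 15584 genes. For Itga1 the lowest, median and highest of the WB1P CD26-negative libraries were 199, 417 and 646 CPM in the 5 GFP-positive and 303, 473 and 728 CPM in the 4 GFP-negative ones. In WB1P-Myc they were 193, 393 and 846 CPM in 3 GFP-positive and 156, 404 and 751 CPM in 5 GFP-negative libraries. The lineages overlapped, and both were far above the NF libraries. edgeR called 0 members higher and 0 lower in CD26-negative CAFs, against 0% and 0% of all genes, where 0 members had an unadjusted p under 0.05. In CD26-positive CAFs it called 0 and 0, against 0.0193% and 0%, with 1 member at an unadjusted p under 0.05. In CD26-negative NFs it called 0 and 0 (0.00642% and 0%), with 0 at an unadjusted p under 0.05. In CD26-positive NFs it also called 0 and 0 (0.00642% and 0%), again with 0. DESeq2 called 0 members in each of these comparisons. Over all genes 641 had an unadjusted p under 0.05 in CD26-negative CAFs, and DESeq2 called 8. With mouse as a block the genes called were 11 in CD26-negative CAFs, 25 in CD26-negative NFs and 3 in CD26-positive NFs.

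Collagens that alpha 1 and alpha 11 receptors bind were followed in 11 genes. In CD26-negative CAFs of WB1P 4 of 11 were called higher and 1 lower (17.6% and 17.8% of all genes), led upward by Col5a1 (log2 fold change 1.08, adjusted p = 0.00221) and Col16a1 (log2 fold change 0.92, adjusted p = 0.00362), and downward by Col13a1 (log2 fold change -5.84, adjusted p = 1.45e-05), a transmembrane collagen. In WB1P-Myc CD26-negative CAFs edgeR called 0 of 11 higher and 1 lower, Col13a1 again (log2 fold change -4.48), against 19.1% and 17.5% of all genes, with 2 at an unadjusted p under 0.05, and DESeq2 called 0 higher. In CD26-positive CAFs the counts were 3 of 11 higher and 3 lower (17.4% and 16.1% of all genes) in WB1P and 2 of 11 higher and 3 lower (17.4% and 17.3% of all genes) in WB1P-Myc. A chain of collagen IV, Col4a1 (log2 fold change -2.12, adjusted p = 2.01e-05), was lower in the CD26-positive than in the CD26-negative class of WB1P CAFs, and so it was in WB1P-Myc (-1.82, adjusted p = 4.06e-05). Col3a1, a fibrillar collagen, was higher there (0.78 in WB1P and 0.68 in WB1P-Myc). That call was lost in WB1P without WB1P mouse 12 (0.71) or 35 (0.72), and in WB1P-Myc without WB1P mouse 35 (0.67), or WB1P-Myc mouse 21 (0.55) or 23 (0.57). On leaving out 1 mouse (in brackets), the count higher became 1 (WB1P-Myc 95) in WB1P-Myc CD26-negative CAFs, 0 (control 49-52), 1 (control 44-46) and 5 (control 82-83) in WB1P CD26-positive CAFs and 0 (control 49-52) and 1 (control 44-46, WB1P 12, 14 or 35, WB1P-Myc 21, 23 or 69) in WB1P-Myc CD26-positive CAFs. Under other settings, the count higher became 1 in GFP-positive sorts alone for WB1P-Myc CD26-negative CAFs, 1 in a fit on only the groups compared and 5 by DESeq2's test for WB1P CD26-positive CAFs and 0 without the 2 mice marked 8x8 and 1 with DESeq2 size factors or without the filter on low counts or in a fit on only the groups compared for WB1P-Myc CD26-positive CAFs.

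Ligands with an RGD or alpha 4 site numbered 20 in the table. CD26-negative CAFs had 11 of 20 higher and 2 lower (17.6% and 17.8% of all genes) in WB1P and 11 of 20 higher and 1 lower (19.1% and 17.5% of all genes) in WB1P-Myc. Spp1, which encodes osteopontin, rose in both (8.35, adjusted p = 2.52e-06, and 7.68, adjusted p = 7.29e-06), from a mean of 5.55 CPM in NFs to 1814 and 1142 CPM. Vwf, von Willebrand factor, was lower (-1.99 and -2.03). Endothelial markers (Pecam1, Cdh5, Kdr, Tek, Emcn and Cldn5) summed to 35.4 to 56.5 CPM in CD26-negative NFs, 18.9 to 22.4 CPM in WB1P and 16.2 to 73.9 CPM in WB1P-Myc CD26-negative CAFs, with 4 and 2 of 6 called lower, the largest being Tek, Kdr and Emcn in these groups and Cldn5 without a count in at least 1 WB1P mouse, and their part in the level of Vwf was not tested. CD26-positive CAFs had 7 of 20 higher and 1 lower (17.4% and 16.1% of all genes) in WB1P and 6 of 20 higher and 1 lower (17.4% and 17.3% of all genes) in WB1P-Myc, with Egfl6 and Spp1 leading in WB1P (6.50 and 6.16). Fbn1, fibrillin 1, was higher in the CD26-positive class of NFs (1.49), of WB1P CAFs (1.08) and of WB1P-Myc CAFs (1.28), and it was the only gene of the list called higher in NFs. Edil3, an RGD protein known from endothelial cells, was lower there in both CAF models (-3.61 and -2.29). The call of Fbn1 in NFs was lost without control mouse 49-52 (1.25) or 44-46 (1.44). With 1 mouse left out, the count higher became 7 (control 44-46) in WB1P-Myc CD26-negative CAFs, and the count lower became 1 (control 49-52) in WB1P CD26-negative CAFs, 2 (control 49-52) in WB1P-Myc CD26-negative CAFs and 2 (WB1P-Myc 21) in WB1P-Myc CD26-positive CAFs. Under other settings, the count lower became 1 in GFP-negative sorts alone or in GFP-positive sorts alone for WB1P CD26-negative CAFs, 0 in GFP-positive sorts alone for WB1P-Myc CD26-negative CAFs and 2 in a fit on only the groups compared and 3 in GFP-positive sorts alone for WB1P-Myc CD26-positive CAFs.

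Laminin chains and nidogens, ligands of alpha 7 beta 1 among others, were 13 genes. In CD26-negative CAFs the calls were 3 of 13 higher and 5 lower (17.6% and 17.8% of all genes) in WB1P and 2 of 13 higher and 6 lower (19.1% and 17.5% of all genes) in WB1P-Myc. Lama1 rose (4.17 and 3.11), and Lama2, the alpha chain of the main muscle laminin, fell (-2.60 and -2.65), from a mean of 3184 CPM in NFs. CD26-positive CAFs had 1 of 13 higher and 4 lower (17.4% and 16.1% of all genes) in WB1P and 1 of 13 higher and 4 lower (17.4% and 17.3% of all genes) in WB1P-Myc, with Lamc3 lowest at -7.68 and -7.26. Between the CD26 classes Lamb2 was higher in the CD26-positive CAFs of both models (0.95 and 0.69), and Lama4 in NFs (0.82). The call of Lama4 was lost without control mouse 82-83 (0.82), 49-52 (0.86) or 44-46 (0.77). On leaving out 1 mouse (in brackets), the count higher became 1 (control 49-52) in WB1P CD26-negative CAFs and 0 (control 82-83 or 49-52, WB1P 35) in WB1P CD26-positive CAFs. Under other settings, the count higher became 1 in GFP-negative sorts alone for WB1P CD26-negative CAFs.

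Adaptors and kinases of the adhesion complex were 32 genes. CD26-negative CAFs had 14 of 32 higher and 3 lower (17.6% and 17.8% of all genes) in WB1P and 11 of 32 higher and 3 lower (19.1% and 17.5% of all genes) in WB1P-Myc. Parvb (beta-parvin) rose by 3.16 and 2.72, and Actn1 (alpha-actinin 1) by 2.82 and 2.55. Fyn, a Src-family kinase, was lower, at -1.07 and -0.86. CD26-positive CAFs had 4 of 32 higher and 3 lower (17.4% and 16.1% of all genes) in WB1P and 4 of 32 higher and 4 lower (17.4% and 17.3% of all genes) in WB1P-Myc. Comparing the classes, 15 of 32 were lower and 5 higher in CD26-positive CAFs of WB1P (13.0% and 13.0% of all genes), and 14 lower and 5 higher in WB1P-Myc (10.7% and 9.29%). Parvb, most like Itga4 over the sums after Aim2, was lowest of these (-4.43 and -4.23), and Lims2, the focal adhesion protein PINCH-2, highest (1.56 and 1.69). In NFs Lims2 was higher in the CD26-positive class as well (3.10), where 4 of 32 were called higher and 1 lower (2.67% and 1.49% of all genes). With 1 mouse left out, the count higher became 2 (control 82-83 or 44-46, WB1P-Myc 67 or 95) in NFs, 3 (WB1P 35) in the contrast of classes in WB1P and 3 (WB1P-Myc 23) in that in WB1P-Myc, and the count lower became 5 (WB1P 93) in WB1P CD26-positive CAFs, 2 (control 49-52 or 44-46) in WB1P-Myc CD26-positive CAFs, 0 (control 49-52 or 44-46) in NFs and 7 (WB1P-Myc 21) and 9 (WB1P-Myc 95 or 23) in that in WB1P-Myc. In other settings, the count lower became 1 without the 2 mice marked 8x8 for WB1P-Myc CD26-negative CAFs, 1 in a fit on only the groups compared for WB1P CD26-positive CAFs and 2 without the 2 mice marked 8x8 or in GFP-positive sorts alone for WB1P-Myc CD26-positive CAFs.

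Partners of integrins in the membrane, such as tetraspanins, syndecans and discoidin receptors, were 15 genes. CD26-negative CAFs had 4 of 15 higher and 2 lower (17.6% and 17.8% of all genes) in WB1P and 3 of 15 higher and 2 lower (19.1% and 17.5% of all genes) in WB1P-Myc. Ddr2, a collagen receptor kinase, fell in both (-1.29 and -1.05), and in CD26-positive CAFs too (-0.98 and -1.11). The CD26-positive class had 4 of 15 higher and 1 lower (17.4% and 16.1% of all genes) in WB1P and 3 of 15 higher and 2 lower (17.4% and 17.3% of all genes) in WB1P-Myc, with Sdc4 rising most (1.78 and 1.50). Sdc1 was lower in CD26-positive than in CD26-negative CAFs (-2.26 in WB1P and -1.70 in WB1P-Myc). Ddr2 in CD26-positive CAFs of WB1P was not called without control mouse 49-52 (-0.83). On leaving out 1 mouse (in brackets), the count higher became 0 (control 49-52 or 44-46), 1 (WB1P 35) and 2 (WB1P 93 or 14) in WB1P CD26-negative CAFs, 1 (control 49-52) in WB1P-Myc CD26-negative CAFs and 2 (control 49-52 or 44-46, WB1P 12) in WB1P CD26-positive CAFs, and the count lower became 4 (WB1P 12) in WB1P CD26-negative CAFs and 1 (control 82-83 or 44-46, WB1P-Myc 21, 95 or 69) in WB1P-Myc CD26-positive CAFs. In other settings, the count higher became 2 without the filter on low counts or in GFP-negative sorts alone for WB1P CD26-negative CAFs, 1 in GFP-positive sorts alone for WB1P-Myc CD26-negative CAFs and 2 in a fit on only the groups compared or in GFP-negative sorts alone for WB1P CD26-positive CAFs, and the count lower became 1 in GFP-positive sorts alone for WB1P-Myc CD26-negative CAFs, 0 in a fit on only the groups compared or in GFP-negative sorts alone and 2 by DESeq2's test or in GFP-positive sorts alone for WB1P CD26-positive CAFs and 1 in a fit on only the groups compared or without the 2 mice marked 8x8 or in GFP-negative sorts alone for WB1P-Myc CD26-positive CAFs.

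Of 17 other integrin genes, 16 were tested. CD26-negative CAFs had 2 of 16 higher and 1 lower (17.6% and 17.8% of all genes) in WB1P and 3 of 16 higher and 1 lower (19.1% and 17.5% of all genes) in WB1P-Myc. The one called lower in both was Itga2b, the platelet subunit alpha IIb (-3.00 and -2.66), with a mean of 44.3 CPM in CD26-negative NFs and 5.52 and 7.00 CPM in the CAFs. The 5 platelet markers listed (Pf4, Ppbp, Gp9, Gp1ba and Itga2b) summed to 38.6 to 50.3 CPM in CD26-negative NFs, of which Itga2b alone gave 38.4 to 50.1 CPM. Itgb7, a partner of alpha 4 best known from lymphocytes, was higher in CD26-positive than in CD26-negative NFs (log2 fold change 5.796, adjusted p = 0.00137), at a mean of 79.8 against 1.43 CPM. It was lower in CD26-positive CAFs than in NFs (-4.04 in WB1P and -3.89 in WB1P-Myc). In the same CD26-positive NFs Itga4 was 0.189 to 0.258 CPM and the 7 immune markers named above summed to 16.9 to 29.6 CPM, and their part in the level of Itgb7 was not tested. Itga2, another collagen receptor, was also higher in the CD26-positive class of NFs (3.15), a call lost without control mouse 49-52 (3.14) or 44-46 (2.96). With 1 mouse left out, the count higher became 0 (control 82-83) and 1 (control 49-52 or 44-46, WB1P 14 or 35) in WB1P CD26-negative CAFs and 0 (control 82-83) and 1 (control 44-46, WB1P-Myc 95) in WB1P-Myc CD26-negative CAFs. In other settings, the count higher became 5 in a fit on only the groups compared and 6 by DESeq2's test or in GFP-positive sorts alone for WB1P CD26-negative CAFs and 0 in GFP-negative sorts alone and 1 in a fit on only the groups compared for WB1P-Myc CD26-negative CAFs.

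Promoters of 300 bases around the transcript start were available for 8 of the 10 genes from RefSeq (GRCm38.p6), and not for Itga7 and Itgb3. Those of Itga1 (chr13:115101915-115102214, strand minus), Itga4 (chr2:79255176-79255475, strand plus), Itgb1 (chr8:128685404-128685703, strand plus) and Itgb5 (chr16:33829415-33829714, strand plus) are shown because these are the genes among the 8 that were called higher in CD26-negative CAFs of both models. Both strands were searched for the GC box GGGCGG, the TATA box TATAAA, the AP-1 motif TGANTCA, the TEAD motif GGAATG and the CArG box, motifs that were chosen after the values were seen and of which none contains another. Capitals mark the matches, with a match on the other strand in its reverse complement.
Itga1: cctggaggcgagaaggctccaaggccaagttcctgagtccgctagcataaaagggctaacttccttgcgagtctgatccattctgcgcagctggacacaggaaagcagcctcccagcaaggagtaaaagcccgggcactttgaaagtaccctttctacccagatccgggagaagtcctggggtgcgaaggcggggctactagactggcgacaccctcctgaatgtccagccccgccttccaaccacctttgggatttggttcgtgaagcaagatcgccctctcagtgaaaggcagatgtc
Itga4: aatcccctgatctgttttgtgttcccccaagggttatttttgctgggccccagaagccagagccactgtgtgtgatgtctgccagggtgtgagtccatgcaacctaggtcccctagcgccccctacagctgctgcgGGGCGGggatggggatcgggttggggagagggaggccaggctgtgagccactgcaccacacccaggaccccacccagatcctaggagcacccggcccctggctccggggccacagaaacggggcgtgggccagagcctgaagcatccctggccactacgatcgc
Itgb1: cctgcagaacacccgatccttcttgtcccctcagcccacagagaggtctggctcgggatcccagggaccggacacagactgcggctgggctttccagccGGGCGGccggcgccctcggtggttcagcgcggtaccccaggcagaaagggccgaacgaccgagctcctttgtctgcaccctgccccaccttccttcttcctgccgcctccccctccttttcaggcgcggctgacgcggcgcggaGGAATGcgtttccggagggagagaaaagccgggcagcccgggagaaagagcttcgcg
Itgb5: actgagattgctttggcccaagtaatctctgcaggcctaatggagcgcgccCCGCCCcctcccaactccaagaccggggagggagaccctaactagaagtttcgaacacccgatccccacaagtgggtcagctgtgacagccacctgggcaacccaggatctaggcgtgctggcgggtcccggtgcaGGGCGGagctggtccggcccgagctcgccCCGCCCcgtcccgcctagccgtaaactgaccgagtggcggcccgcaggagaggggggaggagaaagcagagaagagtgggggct

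The GC box was matched 1 time in Itga4, 3 times in Itgb5, 2 times in Itga5 and 1 time each in Itgav and Itgb1, and not in Itga1, Itga8 or Itga11. It occurs in 35.7% of all 32851 promoters. The TEAD motif was matched 1 time, in Itgb1, and occurs in 14.7% of promoters. The TATA box, the AP-1 motif and the CArG box, found in 13.6%, 7.81% and 1.63% of promoters, were not matched in these windows. The windows of Itga1, Itga4, Itgb1 and Itgb5 held 56.7%, 64.3%, 67.3% and 65.7% G and C, beside a median of 52.7% over all promoters.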

How the data were processed

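The counts are those the authors deposited: stranded, paired-end mRNA reads counted per gene in 44 libraries, with HISAT2 2.2.1 and the build GRCm38 named in the submitters' notes and the counting tool and annotation not given. The depth of 5790599 to 15240328 counts per library puts 1 count at 0.0656 to 0.173 CPM before TMM normalization. One line of the table named no gene, held 0 counts and was left out. Libraries of the GFP-positive and GFP-negative sorts were summed per mouse and CD26 class into 25 sums, and En1 comparisons used the single libraries. Some sums held only 1 sort. These were GFP-positive for WB1P mouse 10 (CD26-negative), WB1P mouse 12 and WB1P-Myc mice 67 and 95 (CD26-positive). They were GFP-negative for WB1P-Myc mice 21 and 95 (CD26-negative).

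Counts were normalized by TMM, filtered with filterByExpr (16601 genes in the sums, 15584 in the libraries) and tested with edgeR 4.0.16 (quasi-likelihood, limma 3.58.1, R 4.3.3), p values adjusted by Benjamini and Hochberg's method, calls made under 0.05. No limit on fold size was set. The study used the same limit on adjusted p but also a limit on fold, so fold sizes are printed. Tables and figures were made in Python 3.11.15 with pandas 2.3.3, numpy 2.4.6 and matplotlib 3.10.9. The procedure was tested on simulated data. Alternatives were DESeq2 1.42.0 (its size factors, and its Wald test), no filter, mouse as a block and a fit on only the groups compared. Others left out the 2 mice marked 8x8 or each mouse in turn, kept the GFP-positive or GFP-negative sorts alone, or took alpha shares without length. The block gave each mouse its own term in the edgeR fit.

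The pairing of CD26 classes comes from the same animal. As a check, deviations of log2 CPM from the group means correlated between the classes of a mouse at r = 0.237 to 0.668 in 12 mice. Gene models are those of GENCODE M21. Named are the 10 members, Dpp4 and Itga6 as checks of the sort, and En1. Its levels are given per sum, over GFP-positive and GFP-negative sorts, so they do not check the GFP split. From each other list at most 2 genes per direction are named, those with the largest fold change among those called. For each member the genes most like it are the 3 with the highest Pearson r of log2 CPM (prior count 2) over the 25 sums. The members and lists were chosen with earlier results of these data known.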

Additional observations from a re-analysis of the deposited data

Results flagged for a closer look

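In 3 groups of mice, 1 mouse lay far from the others. Itga4 in WB1P-Myc CD26-positive CAFs was 1.91 CPM in mouse 69, against 0.327 CPM in the nearest, mouse 21. Itga5 in WB1P CD26-positive CAFs was 2609 CPM in mouse 93, against 952 CPM in mouse 12. Itga7 in WB1P-Myc CD26-positive CAFs was 14.1 CPM in mouse 95, against 5.33 CPM in mouse 21. Of 40 such groups tested, 3 held a mouse this far apart, and chance gives about 1 in 20, or 2 of 40.

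The difference between CD26 classes was not the same in CAFs as in NFs for 3 genes by a direct test. For Itga1 the log2 difference of the differences was -3.81 in WB1P and -3.54 in WB1P-Myc, called in 21 of 21 and 21 of 21 alternatives. For Itga11 it was -2.06 in WB1P, a call kept in 16 of 21 alternatives. For Itga7 it was -3.15 in WB1P-Myc, a call kept in only 8 of 21 alternatives. The cause of these differences was not tested.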

How the results depend on the processing

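With 3 control mice, several calls rest on single mice, and at this depth Itga4 in CD26-positive cells had few counts or none. Over 87 fold changes of members and all settings, 1630 of 1762 values kept their direction and their side of the threshold, 75 kept the direction and lost the call, 34 gained one and 23 changed sign. For the genes named from other lists, 2542 of 2733 values kept direction and call and 191 lost the call. For counts of those lists, 2017 of 2196 stayed within 1.5 times and 179 did not. Where a value changed, the cause was not tested.

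With DESeq2 size factors, members higher became 1 for WB1P CD26-positive CAFs against NFs, and members lower became 2 for WB1P CD26-positive CAFs against NFs.

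With DESeq2's test, members lower became 2 for WB1P CD26-positive CAFs against NFs and 4 for CD26 in WB1P minus NFs, and genes called became 411 for WB1P-Myc against WB1P in CD26-negative CAFs, 9 for WB1P-Myc against WB1P in CD26-positive CAFs, 646 for CD26 in WB1P minus NFs, 414 for CD26 in WB1P-Myc minus NFs, 2 for CD26 in WB1P-Myc minus WB1P, 8 for En1 in CD26-negative CAFs and 6 for En1 in CD26-negative NFs.

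With no filter on low counts, members higher became 1 for WB1P CD26-positive CAFs against NFs and 0 for WB1P-Myc CD26-positive CAFs against NFs, and genes called became 54 for WB1P-Myc against WB1P in CD26-negative CAFs.

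With a fit on only the groups compared, members higher became 0 for WB1P CD26-positive CAFs against NFs, 2 for WB1P-Myc CD26-positive CAFs against NFs and 1 for CD26 in NFs, and members lower became 0 for WB1P-Myc against WB1P in CD26-negative CAFs and 1 for CD26 in WB1P-Myc minus NFs, and genes called became 2834 for WB1P CD26-positive CAFs against NFs, 202 for CD26 in NFs, 6 for WB1P-Myc against WB1P in CD26-negative CAFs, 107 for CD26 in WB1P-Myc minus NFs, 1 for En1 in CD26-positive CAFs, 0 for En1 in CD26-negative NFs and 0 for En1 in CD26-positive NFs.

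With the 2 mice marked 8x8 left out, members higher became 1 for CD26 in WB1P, and members lower became 0 for WB1P-Myc against WB1P in CD26-negative CAFs, and genes called became 2016 for CD26 in WB1P-Myc, 50 for WB1P-Myc against WB1P in CD26-negative CAFs, 125 for CD26 in WB1P-Myc minus NFs and 1 for En1 in CD26-positive CAFs. The sign turned there to Itga4 -0.12 for WB1P-Myc CD26-positive CAFs against NFs and Itga4 -0.34 for WB1P-Myc against WB1P in CD26-positive CAFs.

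With GFP-negative sorts alone, members higher became 1 for WB1P CD26-positive CAFs against NFs and 2 for CD26 in WB1P-Myc, and members lower became 1 for WB1P-Myc CD26-positive CAFs against NFs and 1 for CD26 in WB1P minus NFs, and genes called became 3463 for WB1P CD26-positive CAFs against NFs, 2456 for CD26 in WB1P, 12 for WB1P-Myc against WB1P in CD26-negative CAFs and 95 for CD26 in WB1P minus NFs. The sign turned there to Itga11 0.29 for CD26 in WB1P.

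With GFP-positive sorts alone, members lower became 2 for WB1P CD26-positive CAFs against NFs, 0 for WB1P-Myc against WB1P in CD26-negative CAFs and 1 for CD26 in WB1P-Myc minus NFs, and genes called became 4007 for WB1P-Myc CD26-negative CAFs against NFs, 1826 for CD26 in WB1P-Myc, 44 for WB1P-Myc against WB1P in CD26-negative CAFs and 66 for CD26 in WB1P-Myc minus NFs. The sign turned there to Itga4 -1.003 for WB1P CD26-positive CAFs against NFs, Itga4 -0.35 for WB1P-Myc CD26-positive CAFs against NFs, Itga5 -0.0388 for CD26 in WB1P and Itgb3 -0.0240 for CD26 in WB1P-Myc minus NFs.

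With mouse as a block, which uses the pairing within mice, members higher became 2 for CD26 in WB1P-Myc, and members lower became 1 for CD26 in NFs, and genes called became 1916 for CD26 in NFs, 5346 for CD26 in WB1P-Myc, 851 for CD26 in WB1P minus NFs, 523 for CD26 in WB1P-Myc minus NFs, 11 for En1 in CD26-negative CAFs, 25 for En1 in CD26-negative NFs and 3 for En1 in CD26-positive NFs. The sign turned there to Itga5 -0.22 for CD26 in WB1P. The block also brought in the calls of Itga8 in NFs (-1.66), Itgav in WB1P (-0.65), and Itga11 (0.72) and Itgb1 (-0.36) in WB1P-Myc. Among the fold changes of members that were followed over the settings, it changed no other call. It has no value for comparisons between mice.

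Without division by length the alpha shares moved. They were Itga1 2.21%, Itga4 0.0440%, Itga5 40.3% and Itgav 35.9% in CD26-negative NFs, and Itga1 1.02%, Itga4 0.0160%, Itga7 0.534% and Itgav 26.3% in CD26-positive NFs. In CAFs they were Itga1 19.5%, Itga4 0.389%, Itga5 49.4% and Itgav 18.1% in WB1P CD26-negative CAFs, Itga1 1.32%, Itga4 0.0137% and Itgav 17.3% in WB1P CD26-positive CAFs, Itga1 26.5%, Itga4 0.756%, Itga5 38.7% and Itgav 17.9% in WB1P-Myc CD26-negative CAFs, Itga1 2.10%, Itga5 59.2%, Itga7 0.450% and Itgav 21.6% in WB1P-Myc CD26-positive CAFs.

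Leaving out each mouse in turn, members higher ran from 4 to 8 for WB1P CD26-negative CAFs against NFs, 1 to 2 for WB1P CD26-positive CAFs against NFs, 0 to 2 for WB1P-Myc CD26-positive CAFs against NFs, 0 to 2 for CD26 in NFs, 0 to 1 for CD26 in WB1P and 1 to 2 for CD26 in WB1P-Myc. Members lower ran from 1 to 2 for WB1P-Myc CD26-negative CAFs against NFs, 1 to 2 for WB1P CD26-positive CAFs against NFs, 1 to 2 for WB1P-Myc CD26-positive CAFs against NFs, 0 to 2 for WB1P-Myc against WB1P in CD26-negative CAFs, 1 to 3 for CD26 in WB1P minus NFs and 1 to 2 for CD26 in WB1P-Myc minus NFs. Genes called ran from 3458 to 6063 for WB1P CD26-positive CAFs against NFs, 3740 to 6267 for WB1P-Myc CD26-positive CAFs against NFs, 175 to 719 for CD26 in NFs, 2065 to 3534 for CD26 in WB1P-Myc, 9 to 243 for WB1P-Myc against WB1P in CD26-negative CAFs, 80 to 334 for CD26 in WB1P minus NFs, 40 to 223 for CD26 in WB1P-Myc minus NFs, 1 to 3 for En1 in CD26-positive CAFs, 0 to 1 for En1 in CD26-negative NFs and 0 to 1 for En1 in CD26-positive NFs. Itgav ran from -0.33 to 0.45 for WB1P CD26-negative CAFs against NFs and -0.62 to 0.0611 for WB1P CD26-positive CAFs against NFs. Itga4 ran from -0.97 to 0.48 for WB1P CD26-positive CAFs against NFs, -0.60 to 1.57 for WB1P-Myc CD26-positive CAFs against NFs, -0.81 to 2.2002 for WB1P-Myc against WB1P in CD26-positive CAFs and -0.52 to 1.52 for En1 in CD26-positive NFs. Itga7 ran from -0.33 to 0.52 for WB1P CD26-positive CAFs against NFs. Itga5 ran from -0.29 to 0.20 for CD26 in WB1P and -0.62 to 0.00420 for CD26 in WB1P minus NFs. Itga11 ran from -0.0999 to 0.00900 for CD26 in WB1P. Itgb3 ran from -0.12 to 0.21 for CD26 in WB1P-Myc minus NFs.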

Other observations

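Genes of cell division moved in all 4 comparisons of CAFs with NFs. The 6 listed (Mki67, Top2a, Ccnb1, Cdk1, Birc5 and Aurkb) were called higher, 6 of 6, in each of them (17.6% and 19.1% of all genes in CD26-negative CAFs of WB1P and WB1P-Myc, and 17.4% in CD26-positive CAFs of each). Their summed level was 5.22 to 47.9 CPM in CD26-negative NFs, 149 to 346 in WB1P and 207 to 387 in WB1P-Myc CD26-negative CAFs, 3.74 to 109 in CD26-positive NFs, and 147 to 369 and 149 to 417 in CD26-positive CAFs of WB1P and WB1P-Myc. The low NF values, 5.22 and 3.74 CPM, were those of control mouse 49-52. The other control mice had 41.1 and 47.9 CPM in the CD26-negative class and 109 and 79.8 CPM in the CD26-positive class. Among the 6 endothelial markers, Tek alone gave 153 to 447 of the 183 to 516 CPM in CD26-positive NFs, against 14.3 to 22.9 CPM in CD26-negative NFs. In CD26-positive CAFs of each model 4 of 6 were called lower (16.1% of all genes in WB1P and 17.3% in WB1P-Myc). The 6 summed there to 72.6 to 172 CPM in WB1P (Tek 52.0 to 142) and 105 to 194 CPM in WB1P-Myc (Tek 79.3 to 158).

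Other cell types the gate could hold were followed by their markers. Epithelial markers (7 genes) summed to 22.2 to 53.7 CPM in CD26-negative NFs, 54.4 to 188 in WB1P and 18.6 to 116 in WB1P-Myc CD26-negative CAFs, 12.5 to 29.3 in CD26-positive NFs, and 18.6 to 138 and 0.409 to 65.0 in CD26-positive CAFs of WB1P and WB1P-Myc. In WB1P CAFs of each CD26 class 1 of 7 was called higher, near the share of all genes (17.6% in the CD26-negative and 17.4% in the CD26-positive class). Schwann cell markers (5 genes) summed to 8.62 to 15.23 CPM in CD26-negative NFs, 10.5 to 18.1 in WB1P and 9.13 to 57.7 in WB1P-Myc CD26-negative CAFs, 8.20 to 10.7 in CD26-positive NFs, and 4.83 to 19.2 and 5.14 to 13.1 in CD26-positive CAFs of WB1P and WB1P-Myc. Skeletal muscle markers (6 genes) summed to 62.0 to 302 CPM in CD26-negative NFs, 1.008 to 79.5 in WB1P and 2.15 to 10.5 in WB1P-Myc CD26-negative CAFs, 17.2 to 70.7 in CD26-positive NFs, and 4.20 to 11.4 and 3.61 to 8.37 in CD26-positive CAFs of WB1P and WB1P-Myc. Of these, 6 of 6 were called lower in WB1P-Myc CD26-negative CAFs (17.5% of all genes). In each other comparison of CAFs with NFs the count was 1 of 6, near the share of all genes. That share was 17.8% in WB1P CD26-negative CAFs, and 16.1% and 17.3% in CD26-positive CAFs of WB1P and WB1P-Myc. Ckm was at 0 in WB1P-Myc CD26-positive CAFs. Adipocyte markers (4 genes) summed to 2.25 to 10.1 CPM in CD26-negative NFs, 0.555 to 4.51 in WB1P and 0.189 to 11.0 in WB1P-Myc CD26-negative CAFs, 0.396 to 1.25 in CD26-positive NFs, and 0.0730 to 0.181 and 0 to 0.919 in CD26-positive CAFs of WB1P and WB1P-Myc. Of these, 2 of 4 were called lower in CD26-negative CAFs of each model (17.8% of all genes in WB1P and 17.5% in WB1P-Myc). The count was 1 of 4 in CD26-positive CAFs of each model (16.1% and 17.3% of all genes). Cidec and Lep were at 0 in WB1P CD26-positive CAFs, and Lep in those of WB1P-Myc. Platelet markers (5 genes) summed to 38.6 to 50.3 CPM in CD26-negative NFs, 3.26 to 8.58 in WB1P and 4.59 to 11.5 in WB1P-Myc CD26-negative CAFs, 29.9 to 49.95 in CD26-positive NFs, and 16.8 to 19.8 and 13.8 to 21.0 in CD26-positive CAFs of WB1P and WB1P-Myc, most of it Itga2b. Gp1ba was at 0 in CD26-negative CAFs of both models and in WB1P CD26-positive CAFs, and Gp9 in WB1P CD26-negative CAFs. Control mouse 49-52 stood apart in 2 of these lists in CD26-negative NFs. It had 302 CPM of skeletal muscle markers, against 62.0 and 75.5 CPM in mice 82-83 and 44-46. Of adipocyte markers it had 10.1 CPM, against 2.28 and 2.25 CPM.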
